A study of Mus musculus with 24 samples.

Results

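Purinergic receptors are the cell surface receptors for extracellular ATP, ADP and related nucleotides. The genes described here were the 9 receptor genes *P2rx2*, *P2rx3*, *P2rx4*, *P2rx5*, *P2rx6*, *P2rx7*, *P2ry1*, *P2ry2* and *P2ry12*, taken by their symbol in the gene name column of the array annotation. All 9 were found, with 15 probes, among 27398 gene names and 41174 probes.

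P2X receptors are trimeric cation channels that open when ATP binds, whereas P2Y receptors are G protein-coupled receptors for ATP, ADP or uridine nucleotides. In the dorsal root ganglion (DRG), which holds the cell bodies of sensory neurons with their satellite glia, ATP released by damaged tissue excites nociceptors through channels built from P2X3 and P2X2 subunits. P2X4, P2X7 and P2Y12 are best known from macrophages and microglia, the P2Y12 receptor also from platelets.

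The study profiled L4 and L5 DRGs from adult male C57BL/6J mice, either *Nfil3* KO or wildtype (WT), at day 2 or day 5 after transection of the left sciatic nerve with coaptation of the nerve endings. *Nfil3* encodes a transcription factor of the basic leucine zipper family, and the KO line is a constitutive deletion made by crossing floxed mice with a germline Cre line, so that all cells of the DRG and of the rest of the animal lack the gene. The control DRGs came from the non-injured side of operated mice, so the operation and anaesthesia were shared by all 6 groups (WT control, WT day 2, WT day 5, KO control, KO day 2 and KO day 5, n = 4 each). The titles of the controls say day 0, and the day after the operation at which each was taken is not known. Changes against control may therefore not be matched in time. The labels do not say which control and lesion samples came from the same mouse, or whether DRGs of several mice were pooled, and p-values therefore measure the spread between these samples. The day field of KO control replicate 4 reads 5, whereas its title and source name say day 0, and these were followed.

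The tissue field of the labels names DRG neurons, but whole DRGs were dissected. All 6 sensory neuron markers were well above background in at least 12 of the 24 samples, and so were all 6 satellite glia markers, all 5 markers of myelinating Schwann cells and all 10 macrophage markers on the array. In such mixed tissue, fewer cells of a type and less RNA per cell cannot be told apart. Per sample, 54.5% to 72.3% of probes exceeded background clearly, and saturation was not seen on any spot. *Nfil3* itself lay between 8.52 and 11.16 on the log2 intensity scale in the 12 WT samples and between 2.89 and 7.66 in the 12 KO samples.

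Each array held a different sample in each of its 2 channels. On 6 arrays both samples were of the same time point, 1 WT and 1 KO (here arrays of 1 time point, 12 samples), and on the other 6 they were of the same genotype at different time points (arrays of 2 time points, 12 samples). Controls on arrays of 2 time points stood apart. *Sprr1a*, which encodes an axon growth protein induced by nerve injury, lay between 8.22 and 11.78 in these 4 controls (WT control replicates 2 and 4, KO control replicates 1 and 4) and between 5.53 and 6.17 in the other 4. *Atf3*, an injury-induced transcription factor, lay between 9.11 and 10.08 in the former and between 7.31 and 7.76 in the latter, against at least 13.02 in all 16 lesion samples. The calls of the receptor genes are given with and without these 4 controls. On arrays of 2 time points both samples have the same genotype, so *Nfil3* does not check which channel held which sample. In KO lesion samples *Nfil3* was 5.35 to 6.28 on arrays of 1 time point, beside a WT sample, and 2.89 to 4.17 on arrays of 2. In KO controls it was 3.82 and 4.39 on the former and 2.99 and 7.66 on the latter. The value of 7.66, well above background, is that of KO control replicate 4, whose day field reads 5. *Sprr1a* and *Atf3* were 11.51 and 9.73 in this sample, against 11.78 and 10.08 in WT control replicate 4. The cause was not tested. *Sprr1a* followed the labelled times in all 24 samples, with at most 11.78 in control, 12.68 to 14.32 at day 2 and 15.30 to 15.91 at day 5.

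The sequences that carry these measurements are shown first. A probe of this array is a 60-base oligonucleotide that reports one short stretch of a transcript. The 4 probes below are shown because they measure a stretch of the gene whose change was largest (*P2ry1*), a second stretch of *P2rx4* and of *P2rx7*, where 2 probes of a gene gave different calls or directions, and the neuronal channel *P2rx2*. Coordinates come from the annotation of the array (mm9), and no base is in capitals.
*P2ry1* second probe, chr3:60808067-60808126, plus strand: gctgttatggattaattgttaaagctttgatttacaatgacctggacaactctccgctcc
*P2rx4* second probe, chr5:123177761-123177820, plus strand: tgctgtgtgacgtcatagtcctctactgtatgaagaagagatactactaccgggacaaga
*P2rx7* second probe, chr5:123120528-123123413, plus strand: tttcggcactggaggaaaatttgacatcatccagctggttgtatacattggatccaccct
*P2rx2* probe, chr5:110769903-110769962, minus strand: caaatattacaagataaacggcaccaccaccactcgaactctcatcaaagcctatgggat

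The *P2rx7* probe is placed over 2886 bases of genome, more than its own 60 bases, so the annotation splits it over an intron. The brighter *P2rx7* probe lies further along, at chr5:123134194-123134253, and the brighter *P2ry1* probe at chr3:60812600-60812659, 3584 bases into its transcript where the second probe starts at base 1350.

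The promoters of *P2ry1* and *P2ry12* are shown because these genes had the largest fall and the largest rise of the 9. Each sequence holds the 250 bases before the RefSeq start site, on the strand of the gene, in GRCm38.p6, with CpG dinucleotides in capitals. The RefSeq table used here matched 6 of the 9 genes.
*P2ry1*, chr3:61002535-61002784, plus strand: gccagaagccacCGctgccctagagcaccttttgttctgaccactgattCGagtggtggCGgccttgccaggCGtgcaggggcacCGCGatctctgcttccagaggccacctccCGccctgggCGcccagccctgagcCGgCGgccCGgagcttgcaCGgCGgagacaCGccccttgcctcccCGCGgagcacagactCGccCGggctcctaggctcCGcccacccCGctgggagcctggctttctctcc
*P2ry12*, chr3:59262986-59263235, minus strand: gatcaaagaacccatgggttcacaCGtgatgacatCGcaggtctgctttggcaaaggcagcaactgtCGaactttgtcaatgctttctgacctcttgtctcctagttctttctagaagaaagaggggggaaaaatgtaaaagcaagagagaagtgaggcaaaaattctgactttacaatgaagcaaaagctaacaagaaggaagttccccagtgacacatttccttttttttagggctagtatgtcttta

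The *P2ry1* promoter had 20 CpG dinucleotides and a GC content of 70.8%, and 17.9% of 32851 promoters of the same length had at least as many. The *P2ry12* promoter had 3 and 41.6%, against a median of 6 and 52.4% over all promoters. The promoters of both genes and of *P2rx4*, *P2rx6* and *P2ry2* did not hold, on either strand, the NFIL3-type letters TTACGTAA (found in 0.113% of all promoters) or TTATGTAA (0.819%), the CRE-type letters TGACGTCA (1.55%) or the AP-1-type letters TGANTCA (6.75%). Of these, TGANTCA occurred in 1 of the 8 promoter windows of the matched genes, 1 of 2 of *P2rx7*, 249 bases before the start site. A match or its absence describes only the letters in these windows.

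After the lesion, *P2ry1* and *P2rx6* fell and *P2ry12* rose at both time points, and *P2rx4* was slightly higher at day 5. On the mean of both genotypes, 3 of the 9 genes passed an adjusted p of 0.05 at day 2 (limma, Benjamini-Hochberg over all probes). Of these, 1 was higher, where 9.4% of all gene names were called higher, and 2 were lower, where 12.9% were called lower. At day 5 the test called 2 of the 9 higher, where 10.1% of gene names were, and 2 lower, where 13% were. All 9 genes were well above background in 24 of 24 samples by their brightest probe, and among the 14555 gene names for which this held 35% were called at day 2 and 36.9% at day 5 in either direction. The share of receptor genes called is thus close to that of other detected genes. The plot of the 9 genes by sample shows all values.

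**Figure D1:**
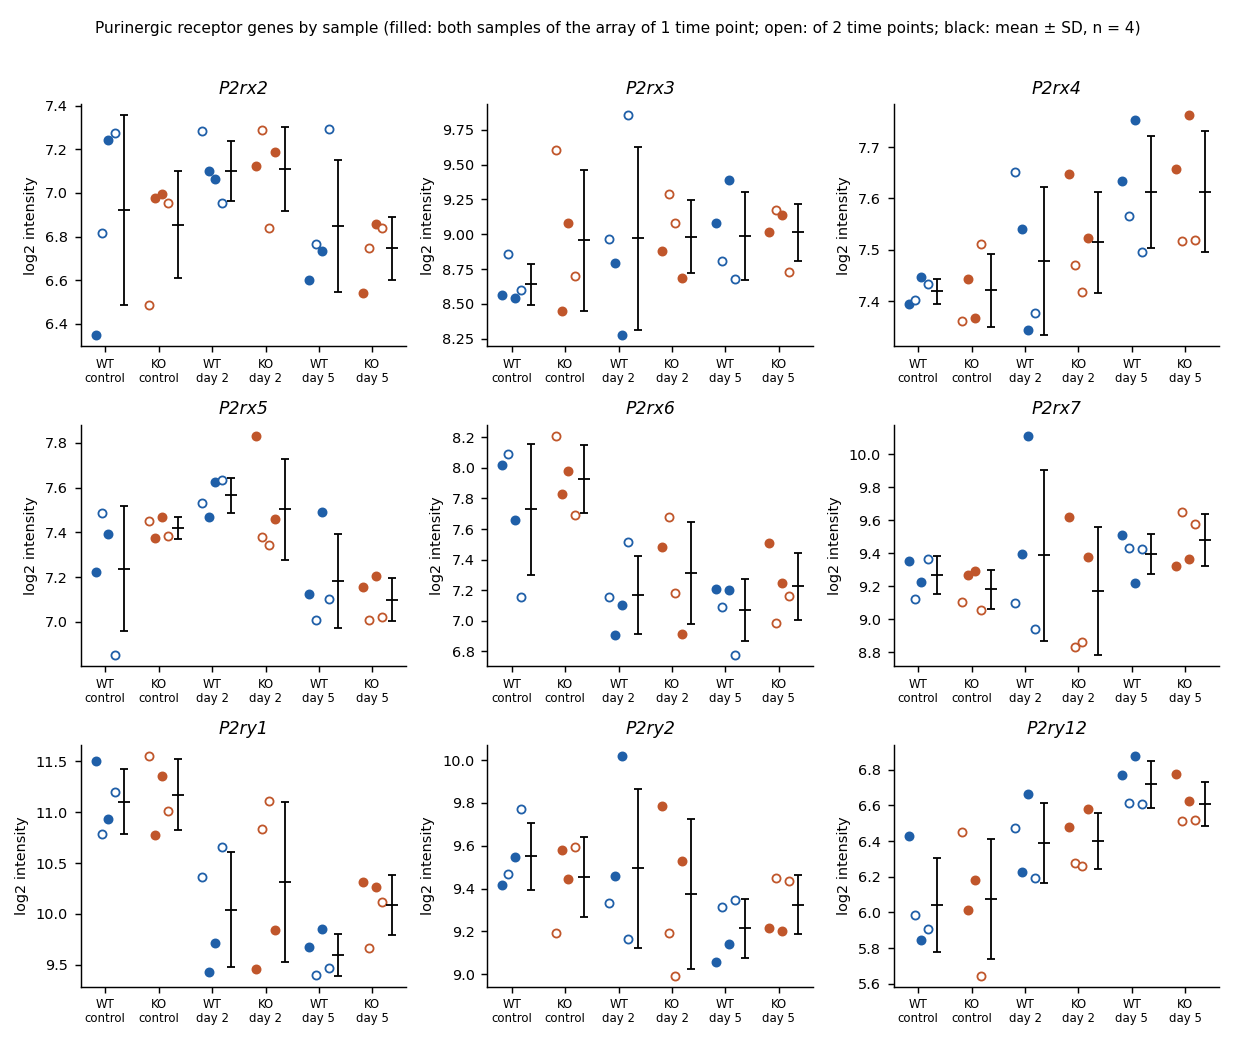
Log2 normalized intensity of the brightest probe of each receptor gene (vertical axis, a scale per gene) in the 6 groups of 4 samples, WT in blue and KO in orange. Filled points are samples on arrays of 1 time point, open points samples on arrays of 2 time points, and black bars give the mean ± SD; all 8 day 5 values of *P2ry1* lie below all 8 control values.

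Among the P2Y receptors, *P2ry1* encodes a Gq-coupled ADP receptor of sensory neurons and platelets. In WT its log2 intensity was 11.50, 10.79, 10.93 and 11.20 in control, 10.37, 9.43, 9.72 and 10.65 at day 2, and 9.67, 9.40, 9.86 and 9.47 at day 5 (replicates 1 to 4). In KO it was 11.55, 10.78, 11.35 and 11.01 in control, 9.46, 10.83, 11.11 and 9.84 at day 2, and 10.31, 9.67, 10.27 and 10.11 at day 5. Control and day 5 did not overlap in either genotype, whereas 2 of the 4 KO samples of day 2 lay within the KO control range.

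*P2ry1* fell by 0.96 ± 0.22 (SE) on the log2 scale at day 2, to 0.513-fold of control (limma, adjusted p = 0.00341), and by 1.29 ± 0.22 at day 5, to 0.408-fold (limma, adjusted p = 0.000184). Its second probe, which had the sequence shown above, fell by 0.63 ± 0.19 and 1.10 ± 0.19 (limma, adjusted p = 0.022 and 0.000201). Both stretches of the transcript thus gave a fall at both times, a larger one at day 5. The further change from day 2 to day 5 did not pass over all samples (-0.33, limma, adjusted p = 0.537).

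The day 2 values of *P2ry1* divided by array. Here and below, changes by array given with a p-value come from a joint fit of all 24 samples, unless a set was fitted alone. The 4 day 2 samples on arrays of 1 time point lay between 9.43 and 9.84 and the 4 on arrays of 2 time points between 10.37 and 11.11, with no overlap. The day 2 change was -1.53 ± 0.19 (SE) on the former (limma, adjusted p = 5.87e-05) and -0.40 ± 0.19 on the latter (limma, adjusted p = 0.276), a difference of -1.13 ± 0.27 (limma, unadjusted p = 0.0008, adjusted p = 0.116). This difference did not pass over all probes, where 71 of 27398 gene names did. The second probe gave -1.05 and -0.21, so the division is not that of a single probe.

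At day 5 the change was -1.11 on arrays of 1 time point and -1.47 on the others (limma, adjusted p = 0.00101 and 9.18e-05). Without the 4 controls that stood apart both calls held. The change was then -0.96 at day 2, with limma's adjusted p at 0.0364, and -1.29 at day 5, where it was 0.00578. With the 12 samples on arrays of 2 time points fitted alone, no receptor gene was called at day 2 and 1 at day 5, *P2ry1*. With the 12 on arrays of 1 time point alone, 2 were called at day 2, *P2rx6* and *P2ry1*. The share of all gene names called was not counted for fits of 12 samples. In the joint fit 1819 of 27398 gene names were called at day 2 on arrays of 2 time points, and 5150 on arrays of 1. At day 5 it was 4021 and 3968. Calls at day 2 on arrays of 2 time points were thus fewer over all genes too. The level of *P2ry1* at day 5 minus that at day 2 was -1.08 on arrays of 2 time points fitted alone (limma, adjusted p = 0.0357) and 0.42 on arrays of 1 (adjusted p = 0.358).

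The summed markers of nonpeptidergic nociceptors were low in the same samples as *P2ry1*. Their log2 summed intensity was 13.02 to 13.42 in the controls, 11.93 to 12.26 in the day 2 samples on arrays of 1 time point, 12.81 to 13.32 in those on arrays of 2, and 11.82 to 12.28 at day 5. *Mrgprd*, also listed for this class, was not on the array. Of the 5 markers of this class on the array, 4 were called lower at each time (*Gfra2*, *Scn11a*, *Plxnc1* and *Lpar3*). The median log2 change of the 5 was -0.74 at day 2 and -1.26 at day 5, against medians of -0.02 and -0.03 over all gene names. The fifth, *Ret*, a receptor tyrosine kinase subunit for neurotrophic factors, was called higher at day 2 (0.45, limma, adjusted p = 0.00677) and was not called at day 5 (0.07). Some other neuronal markers were lower too. Of 3 peptidergic nociceptor markers 2 were called lower at day 2 and 3 at day 5 (median -0.63 and -0.83). Of 6 general sensory neuron markers 4 were called lower at day 2, and at day 5 3 were lower and 1, *Tubb3*, higher (median -0.48 at both times). Of 4 low-threshold and proprioceptive neuron markers 2 were called lower at day 2. At day 5 0 of these were lower and 1, *Spp1*, was higher (median -0.26 and -0.24).

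The division of the day 2 samples by array was not particular to these genes. Between arrays of 1 and of 2 time points the log2 sums did not overlap for markers of myelinating Schwann cells (17.00 to 17.72 against 16.17 to 16.79), fibroblasts (15.69 to 16.22 against 14.58 to 15.24), low-threshold and proprioceptive neurons (13.16 to 13.56 against 12.57 to 12.85) and macrophages (12.05 to 12.35 against 11.396 to 11.997). The same held for skeletal muscle (7.91 to 12.19 against 7.19 to 7.72) and, in the other direction, for oligodendrocytes and astrocytes (6.96 to 7.22 against 7.29 to 7.74). The brightest gene of a list weighs most in such a sum. For oligodendrocytes and astrocytes this was *Aqp4*, while *Mog* was well above background in 2 of 24 samples. For low-threshold and proprioceptive neurons it was *Spp1*. For nonpeptidergic nociceptors *Scn11a* and *Plxnc1* were the brightest, with means of 11.97 and 11.93 in WT control. The sums of peptidergic nociceptors, general sensory neurons, satellite glia, lymphocytes, endothelium and red blood cells overlapped. The part of any of these differences in the fall of *P2ry1* was not tested.

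**Figure D2:**
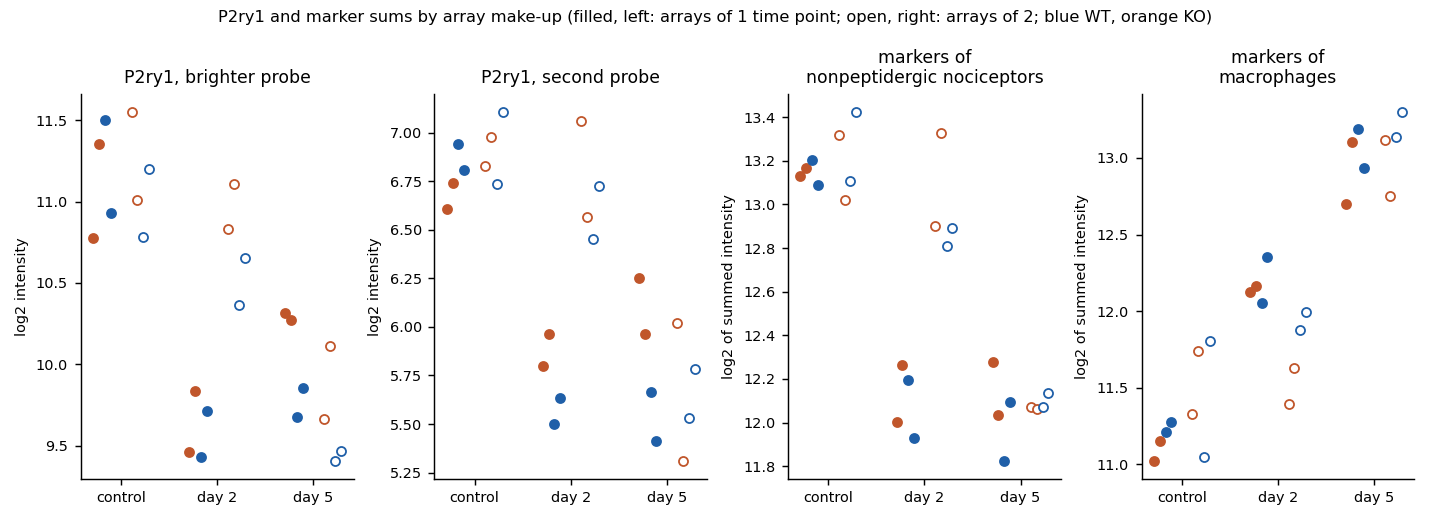
Log2 intensity of both *P2ry1* probes and log2 summed intensity of the nonpeptidergic nociceptor and macrophage markers in each sample at control, day 2 and day 5, WT in blue and KO in orange. Filled points on the left of each time are samples on arrays of 1 time point and open points on the right those on arrays of 2; at day 2 the 2 sets do not overlap in any of the 4 panels.

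Genes with a pattern like that of *P2ry1* were sought among 14484 genes well above background in all 24 samples, without missing values. The most alike were *Rtn4rl1* (Pearson r = 0.97), a Nogo receptor homologue, *Eml1* (0.96), a microtubule-associated protein, and *Rasgrp1* (0.96), a guanine nucleotide exchange factor for Ras. All 24 samples share the lesion contrast and the array design, and no p is given. *Rtn4rl1* fell by 0.95 at day 2 and 1.11 at day 5, *Eml1* by 0.75 and 1.11, and *Rasgrp1* by 1.21 and 1.58 on the log2 scale.

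*P2ry12* encodes a Gi-coupled ADP receptor. In WT its log2 intensity was 6.43, 5.99, 5.84 and 5.90 in control, 6.47, 6.23, 6.67 and 6.19 at day 2, and 6.77, 6.61, 6.88 and 6.61 at day 5. In KO it was 6.45, 6.01, 6.18 and 5.65 in control, 6.48, 6.28, 6.26 and 6.58 at day 2, and 6.78, 6.51, 6.63 and 6.52 at day 5. All 8 day 5 samples lay above all 8 controls (6.51 or higher against 6.45 or lower), and day 2 overlapped with control.

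*P2ry12* rose by 0.34 ± 0.11 (SE) at day 2, or 1.26-fold (limma, adjusted p = 0.0343), and 0.61 ± 0.11 at day 5, or 1.52-fold (limma, adjusted p = 0.000349). The day 2 call was lost without the 4 controls that stood apart (0.28, limma, adjusted p = 0.149), when any of 9 of the 24 samples was left out in turn (adjusted p up to 0.0783), and with the array as a random block (0.29, adjusted p = 0.0606). Without those 4 controls the day 5 rise was 0.55 (limma, adjusted p = 0.00513). The day 5 rise was 0.65 on arrays of 1 time point and 0.56 on arrays of 2 (limma, adjusted p = 0.0182 and 0.0363). With the samples on arrays of 2 time points fitted alone, the day 5 call was lost (limma, adjusted p = 0.0861).

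Macrophage markers rose beside *P2ry12*. Of the 10 on the array, 6 were called higher at day 2 and 10 at day 5, with median log2 changes of 0.60 and 1.64. Their log2 summed intensity was 11.02 to 11.81 in control, 11.40 to 12.35 at day 2 and 12.70 to 13.30 at day 5. Their part in the rise of *P2ry12* was not tested. The genes most like *P2ry12* over the 24 samples were *Atp6ap1* (r = 0.90), a subunit of the vacuolar proton pump, *Prdx6* (0.90), a peroxiredoxin, and *Slc31a2* (0.88), a copper transporter of endosomes and lysosomes.

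*P2ry2* encodes a receptor for ATP and UTP. Its log2 intensity ranged from 9.19 to 9.77 in control (median 9.51), from 8.99 to 10.02 at day 2 (median 9.40) and from 9.06 to 9.45 at day 5 (median 9.26), with overlap at both times. The change was -0.07 (95% CI -0.32 to 0.19) at day 2 and -0.23 (-0.49 to 0.02) at day 5, and did not pass (limma, adjusted p = 0.77 and 0.211). Its second probe gave -0.13 and -0.23, also without passing. At day 2 the 4 samples on arrays of 1 time point (9.46 to 10.02) all lay above the 4 on arrays of 2 (8.99 to 9.33), and the change was 0.20 on the former and -0.34 on the latter (difference 0.54, limma, adjusted p = 0.32).

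Among the P2X channels, *P2rx6* encodes a subunit that forms channels mainly together with other P2X subunits. In WT its log2 intensity was 8.02, 8.09, 7.66 and 7.15 in control, 7.16, 6.91, 7.10 and 7.51 at day 2, and 7.21, 7.09, 7.20 and 6.77 at day 5. In KO it was 8.21, 7.83, 7.98 and 7.69 in control, 7.48, 7.68, 7.18 and 6.91 at day 2, and 7.51, 6.99, 7.25 and 7.16 at day 5. In KO no lesion sample reached the lowest control, and in WT the overlap came from control replicate 4, at 7.15.

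*P2rx6* fell by 0.59 ± 0.14 (SE) at day 2, to 0.665-fold (limma, adjusted p = 0.00471), and by 0.68 ± 0.14 at day 5, to 0.623-fold (limma, adjusted p = 0.00113). The call held at both times with any 1 sample left out (adjusted p at most 0.0128 and 0.00342), and without the 4 controls that stood apart (-0.63 and -0.72, limma, adjusted p = 0.0105 and 0.00351). By array, the day 2 change was -0.77 on arrays of 1 time point and -0.41 on arrays of 2 (limma, adjusted p = 0.0193 and 0.33). The day 5 change was -0.58 and -0.78 (limma, adjusted p = 0.0878 and 0.0215), and neither difference between the arrays passed (limma, adjusted p = 0.771 and 0.908). With each set of arrays fitted alone, the day 5 change passed in neither (limma, adjusted p = 0.0619 and 0.0901). A second probe, placed at chr16:17577793-17577852, was well above background in 0 of 24 samples and measured no level. Averaging both probes took the call away (-0.15 and -0.25, limma, adjusted p = 0.53 and 0.246). Since P2X6 is also known from skeletal muscle, muscle markers were examined, and 0 of 4 were called at either time. Their log2 summed intensity was uneven, from 7.04 to 13.35 over all samples. The genes most like *P2rx6* were *Cdh18* (r = 0.93), a cadherin, *Bcan* (0.92), the matrix proteoglycan brevican, and *Lingo2* (0.92), a leucine-rich repeat membrane protein.

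*P2rx4* encodes a channel highly permeable to calcium. In WT its log2 intensity was 7.39, 7.40, 7.45 and 7.43 in control, 7.65, 7.54, 7.34 and 7.38 at day 2, and 7.63, 7.57, 7.75 and 7.50 at day 5. In KO it was 7.36, 7.44, 7.37 and 7.51 in control, 7.65, 7.47, 7.42 and 7.52 at day 2, and 7.66, 7.52, 7.76 and 7.52 at day 5. Within each genotype all 4 day 5 values exceeded all 4 control values, in KO with 7.52 against 7.51 at the nearest pair.

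The *P2rx4* change was 0.08 ± 0.06 (SE) at day 2, which did not pass (limma, adjusted p = 0.443), and 0.19 ± 0.06 at day 5, or 1.14-fold (limma, adjusted p = 0.0275). The day 5 call was not shared by the second probe (0.16 ± 0.09, limma, adjusted p = 0.239), and it was lost without the 4 controls that stood apart (0.20, adjusted p = 0.131), without any of 4 of the 24 samples in turn (adjusted p up to 0.0677) and with the array as a random block (0.14, adjusted p = 0.126). The day 5 change was 0.29 on arrays of 1 time point and 0.10 on arrays of 2. *P2rx7* and *P2rx4* are neighbours with no other protein-coding gene between them.

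*P2rx7* encodes a channel that needs high ATP and drives interleukin-1 release in macrophages. Its log2 intensity ranged from 9.06 to 9.37 in control (median 9.25), from 8.83 to 10.11 at day 2 (median 9.24) and from 9.22 to 9.65 at day 5 (median 9.43). The day 2 samples spread on both sides of the controls. The change was 0.06 (95% CI -0.24 to 0.35) at day 2 and 0.21 (-0.08 to 0.51) at day 5, with limma's adjusted p at 0.845 and 0.344.

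The second *P2rx7* probe gave -0.26 (-0.56 to 0.03) and -0.01 (-0.30 to 0.28). Over all samples the directions of the 2 probes thus differed at day 2 and neither passed. At day 2 the 4 samples on arrays of 1 time point (9.38 to 10.11) lay above the 4 on arrays of 2 (8.83 to 9.10), with changes of 0.34 and -0.23 (difference 0.57, limma, adjusted p = 0.285). On arrays of 2 time points fitted alone, day 5 exceeded day 2 by 0.59 (limma, adjusted p = 0.0329), and on arrays of 1 it was lower, by -0.27 (adjusted p = 0.489). The second probe divided the same way, with 5.46 to 6.26 against 4.91 to 5.25. Its day 2 change was -0.008 on arrays of 1 time point (limma, adjusted p = 0.977). On arrays of 2 it was -0.52 and passed (limma, adjusted p = 0.0167), and there both probes were lower. The difference between the arrays, 0.51, did not pass (limma, adjusted p = 0.282). The genes most like *P2rx7* were *Itm2a* (r = 0.93), *Col5a1* (0.93), a fibrillar collagen chain, and *H2-DMb1* (0.93), an antigen presentation gene.

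*P2rx3* and *P2rx2* encode the channel subunits of nociceptors. The log2 intensity of *P2rx3* ranged from 8.45 to 9.61 in control (median 8.65), from 8.28 to 9.85 at day 2 (median 8.92) and from 8.68 to 9.39 at day 5 (median 9.05). The 3 ranges overlapped widely, and the change was 0.18 (95% CI -0.22 to 0.57) at day 2 and 0.20 (-0.19 to 0.60) at day 5, with limma's adjusted p at 0.583 and 0.543. The intervals leave room for a rise to 1.5-fold, and a fall of the size seen for *P2ry1* lies outside them. At day 2 the 4 *P2rx3* values on arrays of 1 time point (8.28 to 8.88) lay below the 4 on arrays of 2 (8.96 to 9.85). The change was -0.001 on the former and 0.36 on the latter (difference -0.36, limma, adjusted p = 0.805). At day 5 it was 0.50 and -0.09 (difference 0.59, limma, adjusted p = 0.835). A second probe, well above background in 21 of 24 samples, gave 0.06 and 0.09, and its day 2 values overlapped between the arrays. *P2rx3* was thus not called, while 4 of 5 nonpeptidergic nociceptor markers were called lower.

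For *P2rx2* the log2 intensity ranged from 6.35 to 7.27 in control (median 6.97), from 6.84 to 7.29 at day 2 (median 7.11) and from 6.54 to 7.29 at day 5 (median 6.76). The change was 0.22 (95% CI -0.06 to 0.49) at day 2 and -0.09 (-0.36 to 0.18) at day 5, with limma's adjusted p at 0.276 and 0.723, so no lesion change was resolved.

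*P2rx5*, a channel subunit of slow desensitization, was the receptor gene that differed between the 2 times. Its log2 intensity was 7.53, 7.47, 7.62 and 7.64 at day 2 and 7.12, 7.01, 7.49 and 7.10 at day 5 in WT. In KO it was 7.83, 7.38, 7.34 and 7.46 at day 2 and 7.15, 7.01, 7.20 and 7.02 at day 5. In KO the times did not overlap, and in WT the highest day 5 value (7.49) just exceeded the lowest of day 2 (7.47).

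The day 5 level of *P2rx5* was lower than that of day 2 by -0.39 ± 0.09 (SE) on the log2 scale, or 0.761-fold (limma, adjusted p = 0.0212). It was the only 1 of the 9 called for this contrast, where 3.34% of gene names were. The changes against control, 0.21 at day 2 and -0.19 at day 5, did not pass (limma, adjusted p = 0.131 and 0.177), and controls lay between 6.85 and 7.48. With WT control replicate 4 (6.85) left out, the day 5 change was -0.25 and passed (limma, adjusted p = 0.0351). Without all 4 controls that stood apart it was -0.22 and did not pass (limma, adjusted p = 0.189). The difference between the times held its call with any 1 sample left out, with an adjusted p of at most 0.0494, and does not involve the controls. It was -0.35 on arrays of 1 time point and -0.43 on arrays of 2, fitted alone, without passing in either set of 12.

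**Figure D3:**
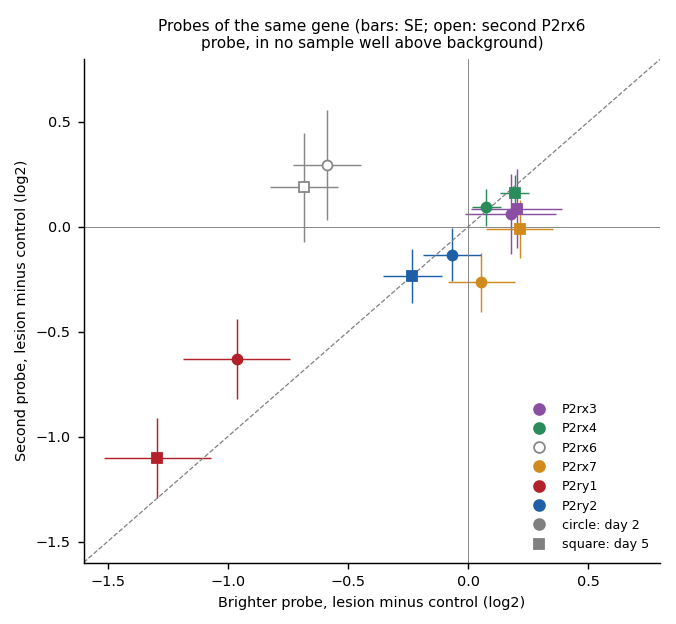
Lesion minus control (log2, mean of both genotypes) by the brighter probe (horizontal) and by the second probe (vertical) of the 6 receptor genes with 2 probes, circles for day 2 and squares for day 5, bars ± SE, dashed line of equality. *P2ry1* falls by both probes at both times; the open points are the second *P2rx6* probe, which was well above background in no sample.

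For the other receptor genes the closest patterns over the 24 samples were less close than for *P2ry1*. They were *Nkd1* (r = 0.89), *Aldh1a1* (0.84) and *Pcsk6* (0.84) for *P2ry2*, and *Tmem198* (0.83), *Hdac6* (0.82) and *Skap1* (0.80) for *P2rx4*. For *P2rx3* they were *Lmbr1l* (0.84), *Ddost* (0.82) and *E130309D02Rik* (0.81), and for *P2rx5* *Wdr59* (0.77), *Mfsd2a* (0.77) and *Tk1* (0.74). For *P2rx2* they were *Gpr152* (0.90) and 2 transcripts without a gene symbol in the array annotation (0.91 and 0.89).

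Each genotype was also examined alone. In WT the test called 1 of the 9 genes at day 2, *P2ry1*, where 11.2% of gene names were called, and 3 at day 5, *P2rx6*, *P2ry1* and *P2ry12*, where 13.7% were. In KO 0 of 9 passed at day 2 by limma (2 of 9 at an unadjusted p under 0.05), where 11.9% of gene names did, and 3 passed at day 5, where 12.7% did. The 3 genes of day 5 were the same in both genotypes.

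At day 5 *P2ry1* changed by -1.50 ± 0.32 (SE) in WT and -1.08 ± 0.32 in KO, *P2rx6* by -0.66 and -0.70 (SE 0.20 each), and *P2ry12* by 0.68 and 0.53 (SE 0.16 each). At day 2 *P2ry1* changed by -1.06 in WT and -0.86 in KO, and the KO value did not pass (limma, adjusted p = 0.0874). A call in one genotype and not in the other does not show a difference between them, which was tested by the time*genotype interaction.

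**Figure D4:**
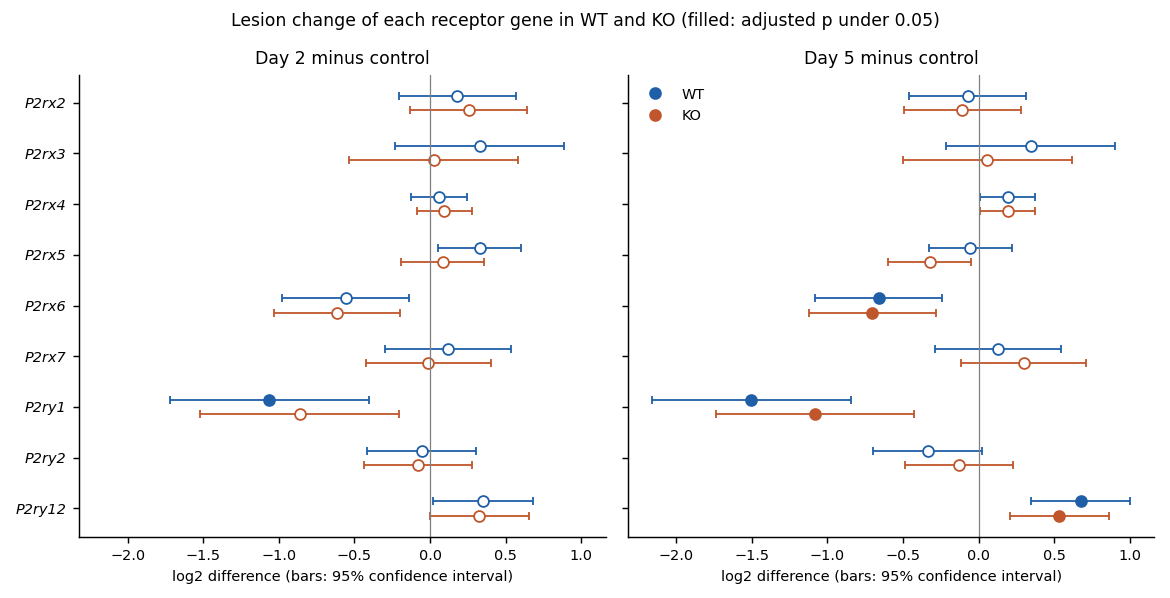
Lesion minus control (log2, horizontal) of each receptor gene at day 2 (left) and day 5 (right), WT in blue and KO in orange, with 95% confidence intervals; filled points passed an adjusted p of 0.05. The WT and KO intervals of every gene overlap at both times, and only *P2rx6*, *P2ry1* and *P2ry12* have filled points.

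No receptor gene was called different between KO and WT. In control 0 of 9 were called, where 0% of gene names were, at day 2 0 of 9, where 0.0073% were, and at day 5 0 of 9, where 0.0109% were (limma). At an unadjusted p under 0.05 it was also 0 of the 27 comparisons. *P2ry1* at day 5 differed most, by 0.49 with KO higher (95% CI -0.17 to 1.15). Its unadjusted p in limma's model fitted across all genes was 0.136, and 3 of the 4 KO values lay above the WT range of 9.40 to 9.86. Of the 27 confidence intervals, 26 lay within 1 log2 unit on both sides, so a KO effect of more than 2-fold was outside them for all but *P2ry1* at day 5. For the time*genotype interaction 0 of 9 were called, where 0% of gene names were, and the smallest unadjusted p was 0.305 (*P2rx5*, limma).

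The receptors act within a system of enzymes and transporters that release, cleave and take up nucleotides and adenosine. Of 31 further genes of this system, 30 were on the array and 3 of these were well above background in no sample. At day 2 the test called 7 of 30 higher, where 9.4% of gene names were, and 8 lower, where 12.9% were. At day 5 it called 8 of 30 higher, where 10.1% of gene names were, and 10 lower, where 13% were. Among gene names well above background in all samples, 35% were called at day 2 and 36.9% at day 5 in either direction. The 8 called higher at day 5 include *P2ry10*, named here after its values were seen. It was well above background in no sample and so measured no level. The median log2 change was 0.17 and -0.02.

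Among the receptors of this list, *P2ry6*, a UDP receptor of phagocytes, ranged from 6.68 to 7.57 in control, 7.23 to 8.48 at day 2 and 8.36 to 9.06 at day 5. It rose by 0.82 ± 0.17 and 1.77 ± 0.17 (SE; limma, adjusted p = 0.00158 and 1.63e-07). It is the direct neighbour of *P2ry2*, which was not called. *P2ry13*, an ADP receptor of myeloid cells and direct neighbour of *P2ry12*, ranged from 4.25 to 5.05 in control, 3.90 to 4.88 at day 2 and 5.63 to 5.97 at day 5, with 17 of 24 samples well above background. Its change of 0.05 at day 2 did not pass (limma, adjusted p = 0.837), and at day 5 it rose by 1.33 ± 0.13 (adjusted p = 2.39e-07). *Slc29a2*, an equilibrative nucleoside transporter, ranged from 7.80 to 8.38 in control, 9.21 to 10.18 at day 2 and 9.02 to 9.45 at day 5, and rose by 1.71 ± 0.12 and 1.17 ± 0.12 (limma, adjusted p = 1.46e-09 and 3.04e-07). For *Slc29a2* no lesion sample overlapped with control at either time.

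Of the enzymes of this list, *Acpp* encodes prostatic acid phosphatase, which makes adenosine from AMP in nonpeptidergic nociceptors. It ranged from 10.36 to 11.11 in control, 8.88 to 10.75 at day 2 and 9.05 to 9.58 at day 5, and fell by 0.94 ± 0.23 and 1.33 ± 0.23 (SE; limma, adjusted p = 0.0044 and 0.000154). *Entpd3*, an ectonucleotidase of sensory neurons, ranged from 11.77 to 12.05 in control, 10.72 to 11.63 at day 2 and 10.60 to 10.92 at day 5, and fell by 0.71 ± 0.10 and 1.12 ± 0.10 (limma, adjusted p = 3.75e-05 and 7.03e-08). *Adk*, the adenosine kinase, fell by 0.50 ± 0.12 and 0.77 ± 0.12 (limma, adjusted p = 0.00461 and 7.32e-05). Between KO and WT 0 of the 30 genes were called at any time, where at most 0.0109% of gene names were (limma, smallest adjusted p of these 6 genes 0.9998). Differences that did not pass remain possible. On arrays of 2 time points alone the day 2 changes of *P2ry6* (0.24), *Acpp* (-0.35) and *Adk* (-0.25) did not pass. Without the 4 controls that stood apart, 15 of the 30 genes were called at either time, against 20, and of the changes called for these 6 genes only that of *Adk* at day 2 was lost (-0.47, limma, adjusted p = 0.0655).

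**Figure D5:**
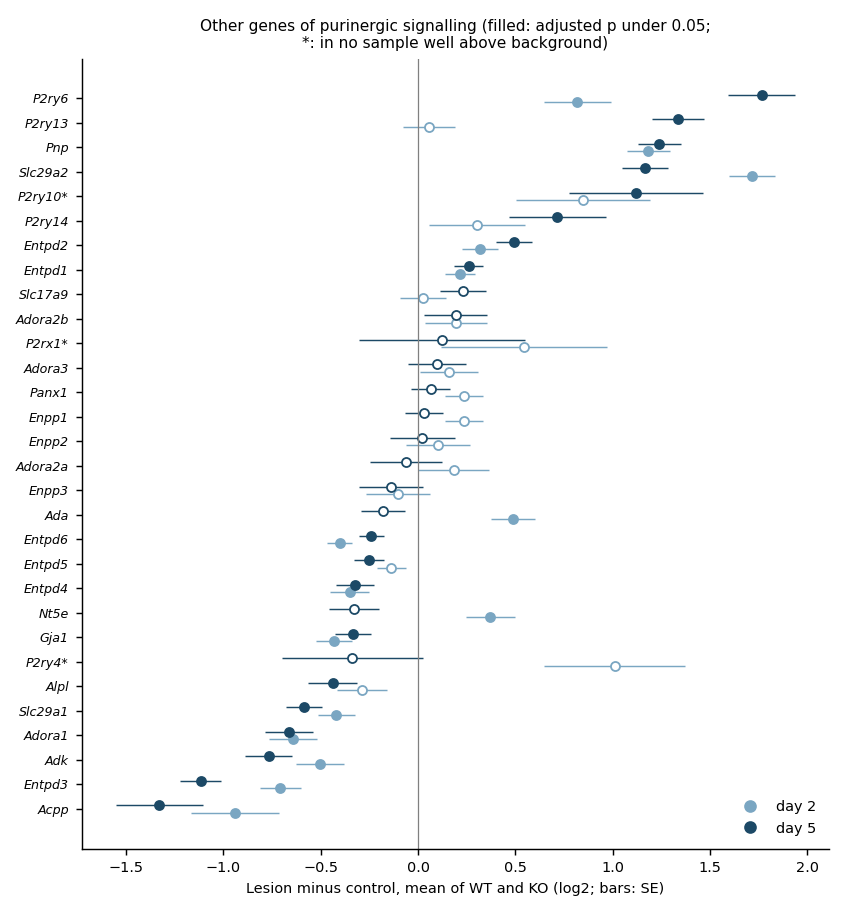
Lesion minus control (log2, mean of WT and KO, bars ± SE) of the 30 further genes of purinergic signalling on the array, day 2 in light and day 5 in dark blue, ordered by the day 5 change; filled points passed an adjusted p of 0.05. *P2ry6* and *P2ry13* lead at the top at day 5, and *Acpp* and *Entpd3* have the largest falls; genes with an asterisk were well above background in no sample.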

How the data were processed

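The 24 samples, 4 in each of 6 groups, were hybridized to 12 arrays (Agilent 4x44K, 3 slides) with a different sample in each channel (replicates 1 and 2 Cy3, replicates 3 and 4 Cy5). Scans were extracted by the authors (Agilent Feature Extraction 10.7.3.1 per the file headers), and the deposited foreground and background intensity of each spot is not normalized. Following the authors' methods, Edwards background correction and quantile normalization of the channels were applied. Control spots and outlier spots were left out (417 probe values missing), and values were put on a log2 scale.

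With limma 3.58.1 in R 4.3.3, 1 mean per group was fitted to 41174 probes, with a Benjamini-Hochberg adjusted p of 0.05 over all probes. Its brightest probe (highest mean) stands for a gene. The 9 receptor genes, all their probes, the 3 further purinergic genes with the largest called change in each direction and the 3 genes most like each receptor gene were named. The receptor genes and lists were chosen with earlier results of these data known. Precision is limited by 4 arrays per group. Scripts were tested on simulated data.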

Additional observations from a re-analysis of the deposited data

Results flagged for a closer look

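Of the 54 sets of 4 values (9 receptor genes in 6 groups), 2 held a sample far from the others by Dixon's 95% criterion for the gap over the range, where chance gives about 1 in 20 such sets, or 2.7. *P2rx2* was 6.49 in KO control replicate 1, below the other 3 samples of the group at 6.96 to 6.99. *P2rx3* was 8.86 in WT control replicate 2, above the other 3 at 8.54 to 8.60. Both samples were on arrays of 2 time points, and the part of this was not tested.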

How the results depend on the processing

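Over the 14 other ways of processing and modelling (background, foreground, normalization, filters, dye, slide, array, array partner, trend, replicate block and averaged probes), the number of receptor genes called at day 2 and at day 5 stayed within 1.5 times of 3 and 4, and 0 were called for KO against WT or the interaction. With the processed signals, 11 of the 36 within-genotype changes were called, against 7. The replicate block gave 3 receptor genes at day 2, 4 at day 5 and 8 within genotypes, and 20 further genes. The labels do not say what a replicate number marks. Deviations of same-numbered samples correlated by -0.12 to 0.26 (median 0.07), over 0.1 in 18 of 60 pairs, against 14 of 60 pairs of the same dye and 6 of 120 of the other dye. Since not every pair was over 0.1, the numbers were not used as pairs, but 17 of 24 samples correlated best with their own number. Each number was labelled with only 1 dye, so a shared dye also favours the own number. This count alone therefore does not show pairing, which stays possible.

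Alternatives by array partner were chosen after seeing the data. Without the 4 controls that stood apart, 2 within-genotype changes were called. The 12 samples on arrays of 1 time point gave 2 calls at day 5, 0 for day 5 minus day 2, 3 within genotypes and 13 further purinergic genes (against 20). The 12 on arrays of 2 time points gave 0 at day 2, 1 at day 5, 2 for day 5 minus day 2, 2 within genotypes and 12 further genes. The share of all gene names called was not counted for these fits. In the joint fit 1819 of 27398 gene names were called at day 2 on arrays of 2 time points, and 5150 on arrays of 1. The cause was not tested, and each fit has 12 samples fewer.

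Leaving out each sample in turn gave 2 to 3 receptor genes at day 2, 3 to 5 at day 5, 1 for day 5 minus day 2, 5 to 9 within genotypes and 18 to 21 further genes.

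The sign of changes that had not passed turned as follows, and the cause was not tested. *P2rx3* day 5 minus day 2 (0.02) became -0.061 with the processed signals, -0.075 with the slide block, -0.064 with the array block, -0.45 on arrays of 2 time points, and -0.091 to 0.17 with a sample left out. *P2rx7* at day 2 (0.06) became -0.033 with the array block, -0.10 with probes averaged, -0.0055 without the 4 controls, -0.23 on arrays of 2 time points, -0.26 by the second probe, and -0.066 to 0.13 with a sample left out. *P2rx7* at day 5 became -0.011 by the second probe. *P2ry13* at day 2 (0.05) became -0.0021 without background correction, -0.00095 with the array block, -0.20 on arrays of 2 time points, and -0.016 to 0.15 with a sample left out. On arrays of 1 time point, *P2rx3* at day 2 became -0.0010, *P2ry2* at day 2 0.20, and the day 5 minus day 2 difference 0.19 for *P2rx6*, -0.27 for *P2rx7* and 0.42 for *P2ry1*. On arrays of 2 time points, *P2rx2* at day 5 became 0.029, *P2rx3* at day 5 -0.093 and *P2ry2* day 5 minus day 2 0.21. Of changes that had passed, only *P2rx6* turned, by its second probe (0.29 at day 2, 0.19 at day 5), which was not above background.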
